A study of Mus musculus with 4 samples.

Results

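Natriuretic peptides are hormones and local signals of the heart, and the genes described here are the 3 peptide genes Nppa, Nppb and Nppc, the processing enzymes Corin and Furin, and the receptors Npr1, Npr2 and Npr3. These 8 genes were taken by their symbols, a rule that uses no measured values, from the 27267 genes to which the deposited transcript records were summed. Earlier results of these data were known when the set was chosen. RNA had been sequenced from cultured cardiomyocytes of CD1 mice, an outbred stock, taken on postnatal day 1, and there was 1 library per condition. The treated cells received the microRNA mimic hsa-miR-199a-3p or the mimic hsa-miR-590-3p, synthetic copies of human microRNAs that the study examined for their effect on cardiomyocyte proliferation. The control cells received cel-miR-67, a microRNA of the worm Caenorhabditis elegans, or a mock transfection. Mimics were given at 50 nM with a lipid reagent, and RNA of all 4 cultures was collected after 72 h.

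As background, Nppa encodes atrial natriuretic peptide and Nppb brain natriuretic peptide, which cardiomyocytes secrete when stretched, while Nppc encodes the C-type peptide, made mainly by endothelium, brain and cartilage. Corin, a membrane-bound serine protease of cardiomyocytes, cleaves the precursor of the atrial peptide, and furin, a proprotein convertase of the Golgi, cleaves the precursors of the brain and C-type peptides. Npr1 and Npr2 are receptor guanylyl cyclases that make the second messenger cyclic GMP, whereas Npr3 takes peptides up for degradation. In the mouse, Nppa and Nppb are strongly expressed in the fetal ventricle, decline there after birth, and are re-expressed under load, so both serve as markers of the fetal and the hypertrophic state.

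Read totals ranged from 31638930 in mock to 38745528 under hsa-miR-199a-3p. Levels are given as CPM, counts scaled to library size with the TMM method. Single libraries leave 0 residual degrees of freedom, so there was no test and no difference has a replicate check. Intervals (95%) reflect counting error alone, and PCR reads that carry no molecular identifier are not independent molecules. The criterion for a difference under a microRNA was a ratio of 2 or more, or of its inverse or less, against cel-miR-67 and likewise against mock. Some lists are also counted by genes below or above both controls. The share of all genes on either side was not computed, so such counts have no reference. The labelled cell type was checked against 7 cardiomyocyte markers, sarcomere and calcium-release genes. All 7 were expressed, with Myh6, the alpha myosin heavy chain, at a mean of 16680.0 CPM, although only 0.158% of its reads were placed uniquely. Genes of other heart cells were present too, and Col1a1, the collagen of fibroblasts, stood at a mean of 5475 CPM.

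The mature sequence of the microRNA under which the peptide genes differed most is shown first, from the RefSeq entry of the mouse gene, since the human mimic itself was not in the sequence table. Capitals mark the seed, bases 2 to 8, which a microRNA uses to pair with its targets. This seed is carried by 2 mature mouse microRNAs of the table, mmu-miR-199a-3p and mmu-miR-199b-3p. The sequence shown is encoded on GRCm38.p6 by Mir199a-1 at chr9:21496498-21496519 (minus strand) and by Mir199a-2 at chr1:162217883-162217904 (plus strand).
mmu-miR-199a-3p: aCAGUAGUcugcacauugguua

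The promoters of Nppb and Nppa follow, because both genes were lower under the microRNAs and lie next to each other on mouse chromosome 4. Each window runs from 250 bases before to 50 bases after the RefSeq start site on the plus strand of GRCm38.p6, at chr4:147985650-147985949 for Nppb and chr4:148000472-148000771 for Nppa. Capitals mark matches to GATA (the core bound by GATA factors, either strand), AAGTG (the core bound by NKX2-5, either strand), TATAAA (the TATA box, gene strand only) and the CArG box bound by SRF.
Nppb: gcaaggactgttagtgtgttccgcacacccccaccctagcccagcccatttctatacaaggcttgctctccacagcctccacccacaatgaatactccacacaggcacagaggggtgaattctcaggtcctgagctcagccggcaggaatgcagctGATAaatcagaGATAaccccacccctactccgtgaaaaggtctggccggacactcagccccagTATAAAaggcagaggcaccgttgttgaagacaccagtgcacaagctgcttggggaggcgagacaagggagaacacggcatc
Nppa: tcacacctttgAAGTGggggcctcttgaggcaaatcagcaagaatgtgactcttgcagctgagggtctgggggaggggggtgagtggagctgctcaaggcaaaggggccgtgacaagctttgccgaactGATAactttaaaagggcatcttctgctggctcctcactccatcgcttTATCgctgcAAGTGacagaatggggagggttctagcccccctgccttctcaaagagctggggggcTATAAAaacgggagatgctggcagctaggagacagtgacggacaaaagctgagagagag

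Both windows held 2 matches to GATA, which 57.9% of 32851 promoter windows of this length contain, and 1 match to TATAAA, which 8.32% contain. Nppa also held 2 matches to AAGTG, found in 46.4% of windows, and 1 to AGGTGT, the T-box core, found in 13.7%. Nppb also held 1 match to CATTCC, the TEAD site, found in 14.7%. Neither window held an exact match to TGANTCA (AP-1), the CArG box CCWWWWWWGG (W for A or T) or a MEF2 box. These patterns occur in 7.81%, 1.63% and 3.19% of windows. Sequences that depart from them, such as ctttaaaagg in the Nppa window, were not searched. The absence of a site for SRF, AP-1 or MEF2 is therefore not shown. The matches listed describe letters in the reference and no binding was measured.

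Nppa was the most abundant gene of the system in all 4 libraries. It had 37666 reads under hsa-miR-199a-3p and 38049 under hsa-miR-590-3p, against 74653 with cel-miR-67 and 60950 with mock. On the CPM scale these were 935 and 1076 under the microRNAs, against 2232 and 2006 in the controls. Both microRNA libraries therefore lay below both control libraries, and the libraries of one kind were closer to each other than to those of the other kind. By RPKM, which divides reads by transcript length and library total and so allows genes of different length to be ranked, Nppa was in place 29 of all genes under hsa-miR-199a-3p and 19 under hsa-miR-590-3p, against 11 with cel-miR-67 and 13 with mock.

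Nppb had 3681 reads under hsa-miR-199a-3p and 7559 under hsa-miR-590-3p, against 9526 with cel-miR-67 and 9375 with mock. These counts correspond to 91.4 and 214 CPM under the microRNAs, against 285 and 309 CPM in the controls. The library of hsa-miR-199a-3p stood apart from the other 3, and that of hsa-miR-590-3p was below both controls by a smaller distance. In the RPKM order Nppb was in place 588 under hsa-miR-199a-3p and 227 under hsa-miR-590-3p, against 187 with cel-miR-67 and 178 with mock.

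Nppc was at the limit of detection, with 2 reads under hsa-miR-199a-3p and 0 under hsa-miR-590-3p, against 1 with cel-miR-67 and 0 with mock. A count of 0 allows up to 3 reads, which is 0.0849 CPM under hsa-miR-590-3p and 0.0987 CPM in mock. No ratio is given for this gene, which was the only 1 of the 8 below a mean of 1 CPM, so 7 were compared.

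**Figure D1:**
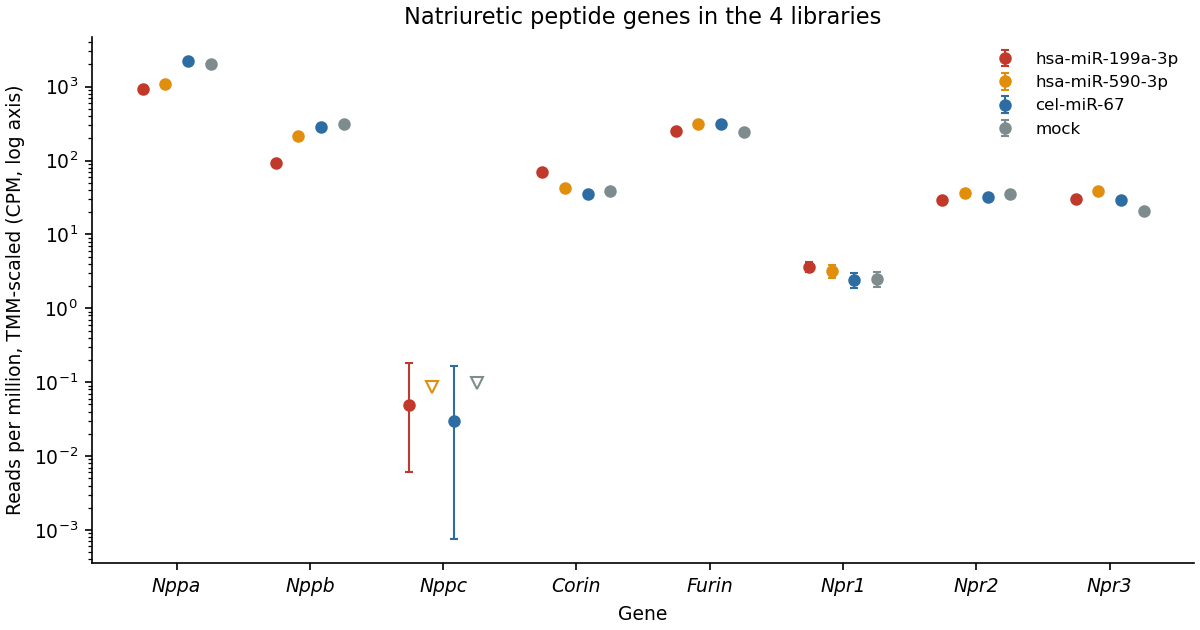
Level of each gene in each library, as TMM-scaled CPM on a log axis, with exact 95% Poisson intervals that cover counting error only and are mostly smaller than the points. Open triangles mark the limit that a count of 0 allows. Nppa lies at 935 and 1076 CPM in the microRNA libraries and at 2232 and 2006 CPM in the controls, and Nppc has at most 2 reads.

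Under hsa-miR-199a-3p, Nppb and Nppa met the 2-fold criterion, both lower, and no gene of the system met it in the higher direction. Over all 13502 genes averaging 1 CPM or more, 2.34% met it lower and 2.4% higher, and among the 2075 genes of at least 100 CPM, where both peptide genes belong, 2.02% met it lower. Nppb stood at a log2 ratio of -1.64 against cel-miR-67, a ratio of 0.321 with an interval of 0.309 to 0.333. Against mock it stood at -1.75, a ratio of 0.296 with an interval of 0.285 to 0.308. Only 0.555% and 0.548% of compared genes had a ratio as low or lower in these comparisons. Nppa stood at -1.25 against cel-miR-67 and -1.10 against mock, ratios of 0.419 and 0.466, and 1.74% and 2.85% of genes were as low or lower. With libraries scaled by their totals, or with the deposited RPKM, Nppa against mock stood at -0.99, short of 2-fold, and Nppb was then the only gene of the system past the criterion.

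Under hsa-miR-590-3p none of the 7 genes met the criterion, which 0.23% of all compared genes met lower and 0.356% higher. Nppa came close, with a log2 ratio of -1.05 against cel-miR-67 and of -0.90 against mock. The intervals of these ratios were 0.476 to 0.488 and 0.530 to 0.544. Ratios of this microRNA were less widely spread over genes, with a robust SD of 0.27 on the log2 scale against cel-miR-67, where hsa-miR-199a-3p gave 0.44. Against cel-miR-67 0.563% and against mock 0.948% of genes were as low as Nppa or lower under hsa-miR-590-3p. Nppb stood at -0.41 and -0.53, and 7.82% and 3.98% of genes were as low or lower. Both microRNAs were set against the same control libraries, so their ratios are not independent of each other.

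Set directly against hsa-miR-590-3p, hsa-miR-199a-3p gave 0.427 times the Nppb level, with an interval of 0.411 to 0.445, and 0.869 times the Nppa level, with an interval of 0.857 to 0.881. Nppb was the only member at least 2-fold apart between these libraries, where 2.71% of genes were lower and 1.87% higher by that factor under hsa-miR-199a-3p. The number of Nppa reads per Nppb read was 10.2 under hsa-miR-199a-3p and 5.03 under hsa-miR-590-3p, against 7.84 with cel-miR-67 and 6.50 with mock. The microRNA libraries thus lay on opposite sides of both controls in this proportion. Between the controls, cel-miR-67 against mock, no member was 2-fold apart, while 0.652% of genes were higher and 1.33% lower by that factor. Nppa stood at 0.15 and Nppb at -0.12 in that comparison.

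**Figure D2:**
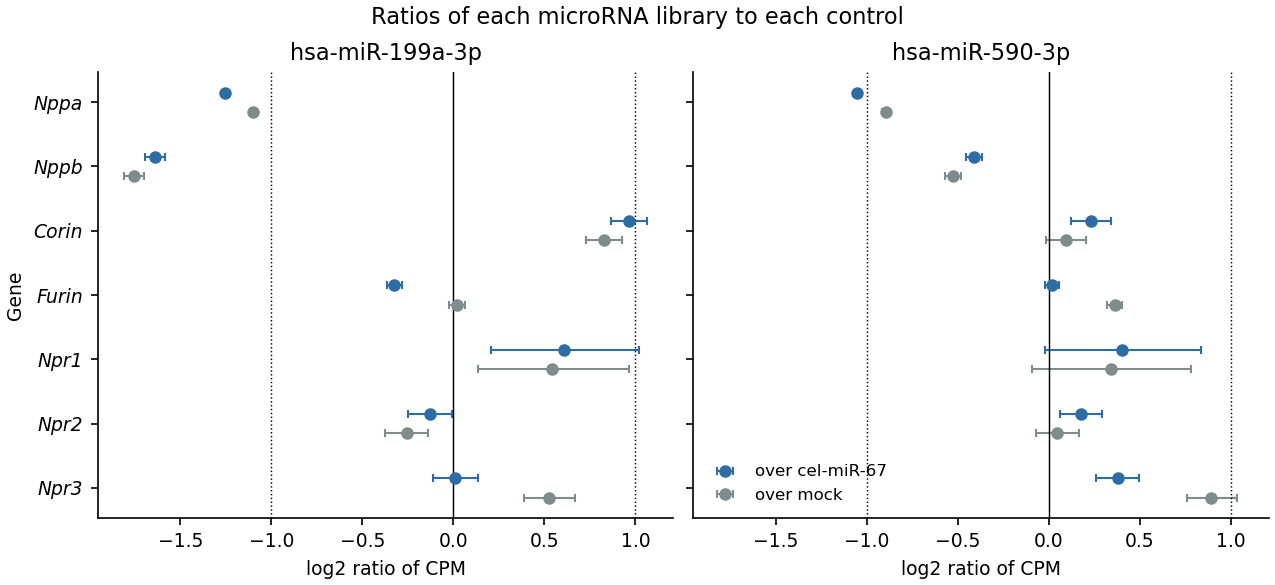
Log2 ratio of CPM of each gene in the library of hsa-miR-199a-3p (left) and hsa-miR-590-3p (right) over cel-miR-67 and over mock, with 95% intervals for counting error only. Dotted lines mark 2-fold. Nppa and Nppb lie left of the lower line against both controls under hsa-miR-199a-3p, and Corin lies just short of the upper line.

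**Figure D3:**
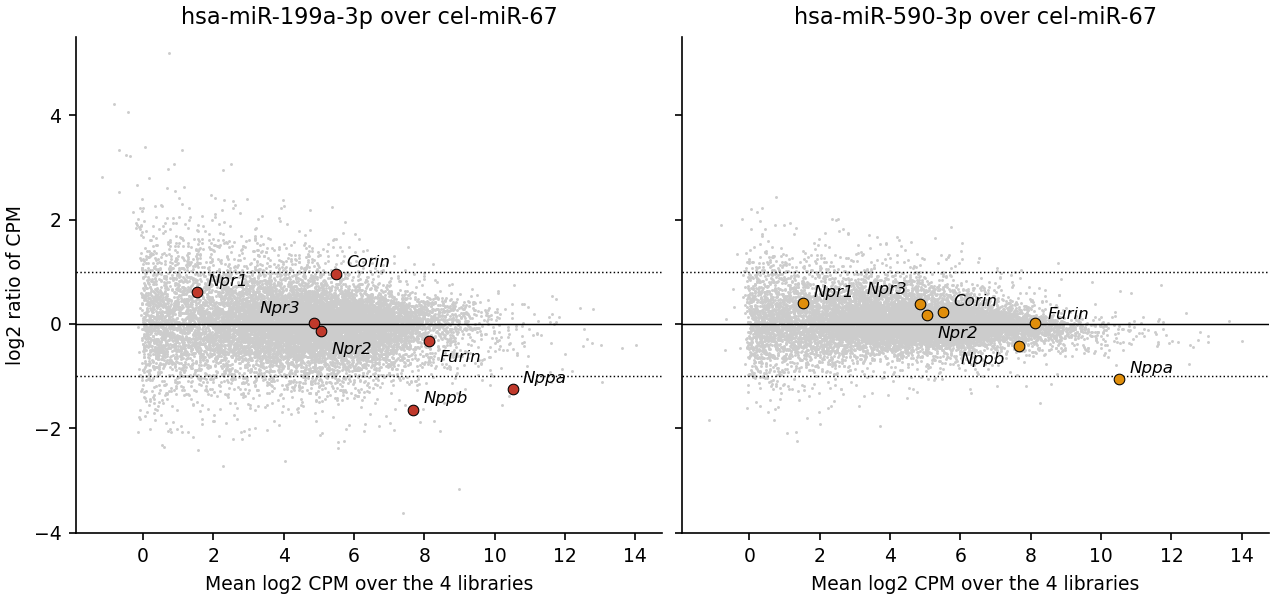
Log2 ratio over cel-miR-67 against mean log2 CPM for all 13502 compared genes (grey) and the 7 compared members (coloured), for each microRNA. Dotted lines mark 2-fold. Nppb lies further from 0 than Nppa under hsa-miR-199a-3p, at -1.64 and -1.25, and Nppa further than Nppb under hsa-miR-590-3p, at -1.05 and -0.41.

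The markers of the cardiomyocyte itself were set beside the peptide genes. All 7 were below both controls in both microRNA libraries, their summed level being 25898 CPM under hsa-miR-199a-3p and 27801 under hsa-miR-590-3p, against 37082 with cel-miR-67 and 40488 with mock. Under hsa-miR-199a-3p 2 of the 7 met the criterion, Ryr2, the calcium release channel, at -1.38 and -1.14, and Ttn, titin, at -1.13 and -1.25, with 2.15% of the reads of Ttn placed uniquely. Under hsa-miR-590-3p 0 of the 7 met it. Of all compared genes, 2.34% met it lower under hsa-miR-199a-3p and 0.23% under hsa-miR-590-3p. The share of all genes below both controls was not computed. In such mixed cultures fewer cardiomyocytes and less RNA per cardiomyocyte cannot be told apart. Nppb amounted to 3.53 reads per 1000 marker reads under hsa-miR-199a-3p and 7.69 under hsa-miR-590-3p, against 7.68 with cel-miR-67 and 7.62 with mock. Relative to this sum of marker reads, the level of Nppb under hsa-miR-590-3p was thus 1.00 times that under cel-miR-67. Under hsa-miR-199a-3p it was 0.459 times. For Nppa the values were 36.1 under hsa-miR-199a-3p and 38.7 under hsa-miR-590-3p, against 60.2 with cel-miR-67 and 49.5 with mock. Relative to the same sum Nppa was therefore 0.600 and 0.643 times its level under cel-miR-67, and 0.729 and 0.782 times its level in mock. The sum is weighted towards Myh6, which had 552957 of the 1043002 marker reads under hsa-miR-199a-3p. Against cel-miR-67 the log2 ratios of single markers ran from -0.10 to -1.38 under hsa-miR-199a-3p and from -0.17 to -0.79 under hsa-miR-590-3p. Values relative to another marker would therefore differ.

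**Figure D4:**
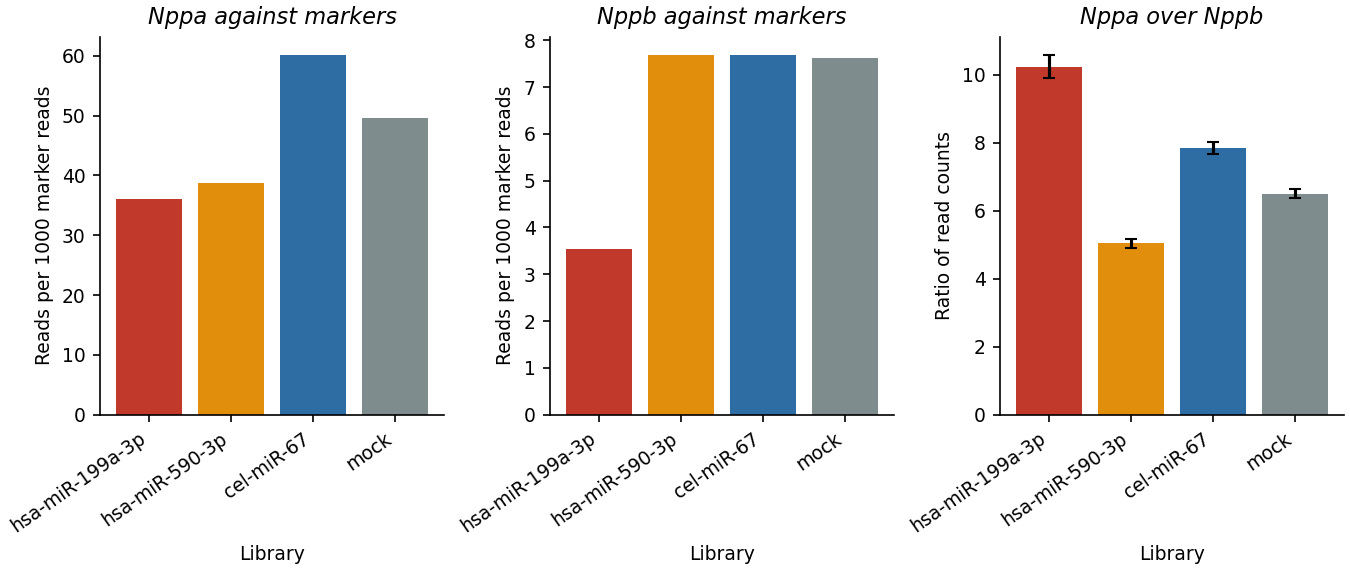
Reads of Nppa (left) and Nppb (middle) per 1000 summed reads of 7 cardiomyocyte markers, and the ratio of Nppa to Nppb reads with its 95% counting interval (right), in each library. Nppb per marker reads is between 7.62 and 7.69 in 3 libraries and 3.53 under hsa-miR-199a-3p.

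Of 5 atrial markers 4 were measured, and 1 met the criterion, lower, under each microRNA. This was Myl4, the atrial essential light chain, which fetal ventricle also expresses and which had 8592 reads under hsa-miR-199a-3p and 9607 under hsa-miR-590-3p, against 20270 with cel-miR-67 and 17852 with mock. The list medians were -0.48 against cel-miR-67 and -0.66 against mock under hsa-miR-199a-3p, and -0.33 and -0.55 under hsa-miR-590-3p. The other 4 listed genes are named after their values were seen. Sln, sarcolipin, an inhibitor of the calcium pump, lay at -0.59 and -0.84 under hsa-miR-199a-3p and at -0.92 and -1.17 under hsa-miR-590-3p. Stard10, a lipid transfer protein, lay at -0.36 and -0.47 under hsa-miR-199a-3p and at 0.31 and 0.20 under hsa-miR-590-3p. Myl7, the atrial regulatory light chain, lay at 0.80 and 0.54 under hsa-miR-199a-3p and at 0.26 and 0.01 under hsa-miR-590-3p. Bmp10, a growth factor of the atrium, was below 1 CPM, with 13 and 9 reads under the microRNAs, against 3 and 4 in the controls. None of the 5 ventricular markers met the criterion under either microRNA, and Myl2, the ventricular regulatory light chain and the most abundant, lay at 0.53 and -0.02 under hsa-miR-199a-3p and at 0.05 and -0.49 under hsa-miR-590-3p.

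Corin, the protease that acts on the product of Nppa, was above both controls in summed reads. It had 2809 reads under hsa-miR-199a-3p and 1483 under hsa-miR-590-3p, against 1195 with cel-miR-67 and 1194 with mock. In CPM these were 69.7 and 42.0 under the microRNAs, against 35.7 and 39.3 in the controls. Under hsa-miR-199a-3p the log2 ratios were 0.96 and 0.83, so Corin missed the criterion, and the interval of its ratio to cel-miR-67, 1.82 to 2.09, included 2. Under hsa-miR-590-3p they were 0.23 and 0.09, and the sign and size of these values changed with how the reads of its variants were counted.

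The reads of Corin are divided between 2 transcript variants in the deposited counts, and only 2.75% of them were placed uniquely. Variant 2 took 28 of 75 unique reads under hsa-miR-199a-3p and 14 of 51 under hsa-miR-590-3p, against 1 of 21 under cel-miR-67 and 4 of 37 in mock. The share was 37.3% under hsa-miR-199a-3p, with an exact (Clopper-Pearson) interval of 26.4% to 49.3%, and 27.5% under hsa-miR-590-3p, with 15.9% to 41.7%. In the controls it was 4.76% with cel-miR-67 (0.120% to 23.8%) and 10.8% with mock (3.03% to 25.4%). The interval of hsa-miR-199a-3p did not reach those of the controls, and the interval of hsa-miR-590-3p overlapped both. Of all Corin reads the deposited counts gave variant 2 38.7% and 27.4% under the microRNAs, against 8.28% and 13.4% in the controls. These shares were close to those of the few unique reads. How reads that fit both variants were divided is not given, so the shares of all reads are no separate support. Under hsa-miR-199a-3p variant 1 alone, the record with most reads, had log2 ratios of 0.38 against cel-miR-67 and 0.36 against mock, while uniquely placed reads of both variants gave 1.54 and 0.63. Under hsa-miR-590-3p variant 1 alone had -0.11 and -0.12, and uniquely placed reads gave 1.18 and 0.26. These variant 1 values use all reads assigned to it. Its unique reads under hsa-miR-199a-3p, 47 against 20 and 33 in the controls, gave plain ratios of 1.95 (1.13 to 3.48) to cel-miR-67 and 1.07 (0.674 to 1.73) to mock. Between the controls, cel-miR-67 over mock, that ratio was 0.551 (0.299 to 0.988).

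Furin had 10044 reads under hsa-miR-199a-3p and 11158 under hsa-miR-590-3p, against 10442 with cel-miR-67 and 7467 with mock. These were 249 and 316 CPM under the microRNAs, against 312 and 246 CPM in the controls, so the values of both kinds of library overlapped. The controls themselves differed by a log2 ratio of 0.35, cel-miR-67 against mock, larger in size than the ratios under the microRNAs other than 0.36 for hsa-miR-590-3p against mock. Uniquely placed reads were 1.28% of its total and put hsa-miR-199a-3p against mock at -0.29, where all reads put it at 0.02. The number of Furin reads per Corin read was 3.58 under hsa-miR-199a-3p and 7.52 under hsa-miR-590-3p, against 8.74 with cel-miR-67 and 6.25 with mock.

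Of the receptors, Npr2, which binds the C-type peptide, had the highest level per length in each library. Its RPKM was 8.37 under hsa-miR-199a-3p and 10.2 under hsa-miR-590-3p, against 8.60 with cel-miR-67 and 9.25 with mock. It had 1187 and 1287 reads under the microRNAs, against 1078 and 1071 in the controls, with log2 ratios of -0.13 and -0.26 under hsa-miR-199a-3p and of 0.18 and 0.05 under hsa-miR-590-3p. These are smaller than the robust SD over genes given above, and Npr2 made up 60.7% and 61.1% of the summed RPKM of the 3 receptors under the microRNAs, against 64.4% and 72.8% in the controls.

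Npr1, which binds the atrial and brain peptides, was the least abundant receptor. It had 147 reads under hsa-miR-199a-3p and 112 under hsa-miR-590-3p, against 80 with cel-miR-67 and 76 with mock. Both microRNA libraries were above both controls, by log2 ratios of 0.61 and 0.54 under hsa-miR-199a-3p and of 0.40 and 0.34 under hsa-miR-590-3p. The intervals were wide at this depth, 1.15 to 2.03 for hsa-miR-199a-3p against cel-miR-67, and for hsa-miR-590-3p both intervals included 1. By RPKM, Npr1 stood at 0.930 and 0.800 under the microRNAs, against 0.570 and 0.590 in the controls.

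Npr3, the clearance receptor, which is also a known marker of the endocardium, had 1202 reads under hsa-miR-199a-3p and 1361 under hsa-miR-590-3p, against 991 with cel-miR-67 and 630 with mock. In CPM these were 29.8 and 38.5 under the microRNAs, against 29.6 and 20.7 in the controls. Mock was lower than the 3 libraries that had received a mimic, and cel-miR-67 against mock gave a log2 ratio of 0.51, which 3.83% of genes reached or passed. Consequently the ratios depended on the control: 0.01 against cel-miR-67 and 0.53 against mock under hsa-miR-199a-3p, and 0.38 and 0.89 under hsa-miR-590-3p. Uniquely placed reads were 1.67% of the total, at most 22 in a library, for 2 variants of near equal length. With unique reads alone the ratio of hsa-miR-590-3p to cel-miR-67 was -0.16. Endothelial markers summed to 239 and 266 CPM under the microRNAs, against 253 and 300 CPM in the controls, and endocardial markers other than Npr3 to 56.9 and 51.9 CPM under the microRNAs, against 45.5 and 54.5 CPM in the controls. None of the 7 endothelial and 4 endocardial markers met the criterion under either microRNA, none was at 0 reads in any library, and their part in the values of Npr3 was not tested.

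Other genes of the pathway were followed through lists. A list of 5 genes covered degradation, an alternative ligand and a convertase that is also counted among the convertases below. The 4 measured ones did not include the ligand, and none of them met the criterion under either microRNA. Their medians were 0.23 against cel-miR-67 and 0.37 against mock under hsa-miR-199a-3p, and 0.43 and 0.58 under hsa-miR-590-3p. Ide, a protease that can degrade natriuretic peptides and the most abundant of them, lay at -0.01 and -0.26 under hsa-miR-199a-3p and at 0.08 and -0.16 under hsa-miR-590-3p. Mme, neprilysin, the main peptidase for these peptides, is named after its values were seen. It had 173 and 136 reads under the microRNAs, against 75 and 61 in the controls, with log2 ratios of 0.93 and 1.09 under hsa-miR-199a-3p and of 0.77 and 0.93 under hsa-miR-590-3p. Ostn, which encodes osteocrin, a ligand of Npr3, also named after its values were seen, lay below 1 CPM, with 13 reads under hsa-miR-199a-3p and 0 under hsa-miR-590-3p, against 0 with cel-miR-67 and 0 with mock. Its observed level was 3.60 times the 3-read limit of cel-miR-67 and 3.27 times that of mock. These values leave out the counting error of the 13 reads, so they are not lower bounds of the ratio.

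Of 16 measured genes of cyclic GMP signalling, 2 met the criterion higher and 1 lower under hsa-miR-199a-3p, and 0 met it under hsa-miR-590-3p. Of all compared genes, 2.4% met it higher and 2.34% lower under hsa-miR-199a-3p. The list medians were 0.13 against cel-miR-67 and 0.04 against mock, where all compared genes had -0.0048 and -0.011, and 0.24 and 0.19 under hsa-miR-590-3p, where all genes had -0.00073 and -0.0058. Rgs2, a regulator of G-protein signalling that the cyclic GMP-dependent kinase activates, had 694 reads under hsa-miR-199a-3p and 207 under hsa-miR-590-3p, against 131 with cel-miR-67 and 163 with mock. Its log2 ratios under hsa-miR-199a-3p were 2.13 and 1.68. Pde3b, a phosphodiesterase that cyclic GMP inhibits, had 968 and 668 reads under the microRNAs, against 349 and 353 in the controls, with 1.20 and 1.05 under hsa-miR-199a-3p. Pln, phospholamban, a regulator of the calcium pump and a substrate of that kinase, was the most abundant and the lower one, with 24056 and 40076 reads under the microRNAs, against 58434 and 48823 in the controls. Only 4.08% of the reads of Pln were placed uniquely.

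Transcription factors known to act on Nppa or Nppb mostly stayed within 2-fold. Of 29 measured, 1 met the criterion under hsa-miR-199a-3p, higher, and 0 under hsa-miR-590-3p. Over all compared genes 2.4% and 0.356% met it higher. Under hsa-miR-199a-3p 16 of the 29 were below both controls and 9 above both, with medians of -0.11 and -0.11. Under hsa-miR-590-3p 8 were below and 17 above, with medians of 0.02 and 0.11. The shares of all genes below and above both controls were not computed. Scaled by the reads of the cardiomyocyte markers, the medians were 0.40 and 0.54 under hsa-miR-199a-3p, where the median of all compared genes was 0.51 and 0.63, and 0.44 and 0.65 under hsa-miR-590-3p, where it was 0.41 and 0.54. Hand1, a bHLH factor of the early ventricle, was the one that met it, with 371 reads under hsa-miR-199a-3p and 110 under hsa-miR-590-3p, against 93 with cel-miR-67 and 70 with mock, log2 ratios of 1.72 and 1.99 under hsa-miR-199a-3p. Tbx20, a T-box factor and the most abundant, had 21118 and 28369 reads under the microRNAs, against 36709 and 26496 in the controls. Its log2 ratio under hsa-miR-199a-3p was -1.07 against cel-miR-67 and -0.73 against mock. Gata4 and Nkx2-5, named because their cores were searched in the promoters, stood at -0.23 and -0.11 and at 0.16 and 0.13 under hsa-miR-199a-3p, and at -0.29 and -0.17 and at 0.14 and 0.10 under hsa-miR-590-3p.

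Among 13 fetal and hypertrophic genes of the cardiomyocyte, 3 met the criterion lower under hsa-miR-199a-3p and 1 under hsa-miR-590-3p. Over all compared genes 2.34% and 0.23% met it lower. Of the 13, 10 and 12 were below both controls, with no share of all genes to set beside these counts. The list medians were -0.59 and -0.66 under hsa-miR-199a-3p and -0.35 and -0.50 under hsa-miR-590-3p. Scaled by the reads of the cardiomyocyte markers they were -0.07 and -0.02 under hsa-miR-199a-3p and 0.07 and 0.04 under hsa-miR-590-3p. On that scale the median of all compared genes was 0.51 and 0.63 under hsa-miR-199a-3p and 0.41 and 0.54 under hsa-miR-590-3p. Such values are relative to the marker sum and do not give levels per cardiomyocyte. Beside Myl4, which met the criterion under both microRNAs, Xirp2 and Csrp3 met it under hsa-miR-199a-3p. Xirp2, an actin-binding protein, had 789 and 1607 reads under the microRNAs, against 2509 and 4971 in the controls. Csrp3, the muscle LIM protein, had 4706 and 12582 reads, against 14233 and 15482. Of Xirp2 and Csrp3 only 0.608% and 5.32% of reads were placed uniquely. Actc1, cardiac actin, the most abundant, lay at -0.40 and -0.55 under hsa-miR-199a-3p. Acta1, the skeletal actin that is re-expressed in hypertrophy along with the natriuretic peptides, is named after its values were seen. It had 4550 and 1524 reads under the microRNAs, against 2012 and 2466 in the controls, and so was above both controls under hsa-miR-199a-3p, where Nppa and Nppb were below them.

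Among the proprotein convertases other than furin, 5 were measured and all 5 were above both controls under hsa-miR-199a-3p, none by 2-fold against both. The share of all genes above both controls was not computed. The medians were 0.19 and 0.29 under hsa-miR-199a-3p and 0.15 and 0.20 under hsa-miR-590-3p. Mbtps1, site-1 protease and the most abundant, stood at 0.19 and 0.23, with 0.716% of its reads placed uniquely.

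The 6 protein-coding genes nearest to Nppb and Nppa on the chromosome, 3 on each side, were followed as well. None of the 6 met the criterion under either microRNA, and their log2 ratios lay between -0.23 and 0.59 under hsa-miR-199a-3p and between -0.65 and 0.25 under hsa-miR-590-3p. Clcn6, a chloride-proton exchanger and the direct neighbour of Nppa, stood above both controls, with 1075 and 743 reads under the microRNAs, against 591 and 563 in the controls. Mfn2, a mitochondrial fusion protein, the most abundant of the 6, lay at -0.07 and -0.23 under hsa-miR-199a-3p. Plod1, a lysyl hydroxylase, and Agtrap, which binds the angiotensin receptor, lay between -0.12 and 0.31 under that microRNA.

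**Figure D5:**
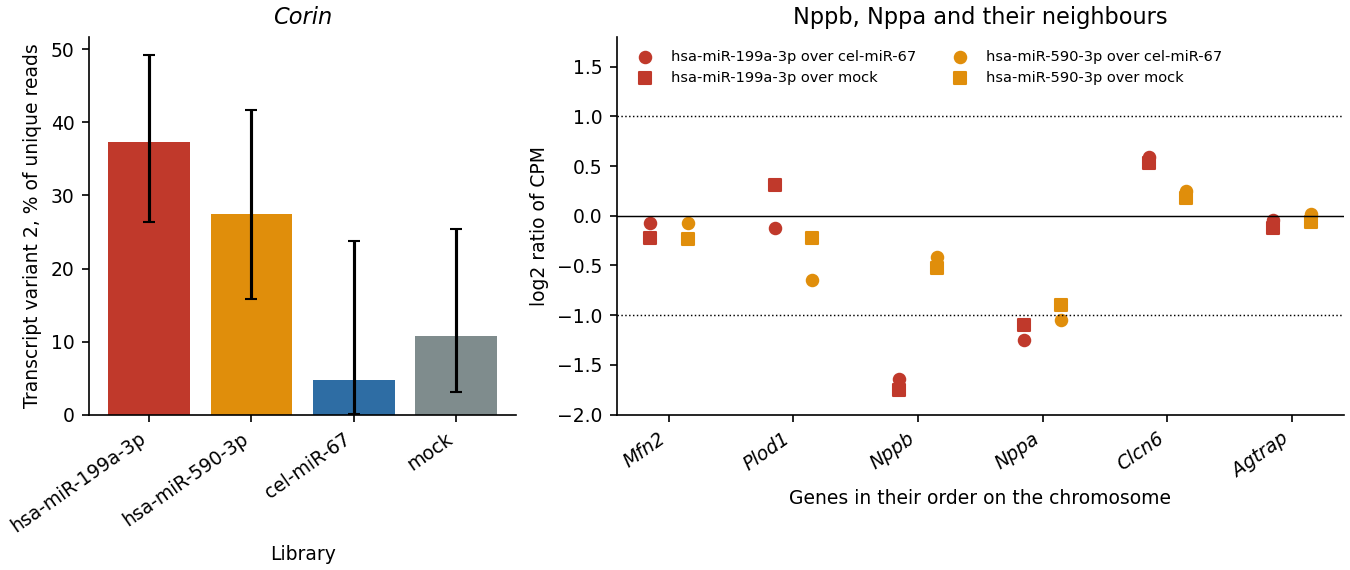
Left, share of Corin unique reads that belong to transcript variant 2, with exact 95% intervals. Right, log2 ratios of Nppb, Nppa and 4 of their 6 nearest protein-coding neighbours, in chromosomal order and not to scale, with 2-fold as dotted lines. Among the genes drawn only Nppb and Nppa reach a log2 ratio of -1.

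The genes with profiles most like those of the peptides were sought over the 4 libraries among 9589 genes of at least 10 CPM, by the Euclidean distance between log2 CPM profiles centred on their own means. For Nppa the nearest were Etfrf1 (distance 0.15), Crebrf (0.18), Kdm7a (0.19), Styx (0.21) and Clic5 (0.21), and only 3.82% of the reads of Etfrf1 were placed uniquely. For Nppb the nearest were Masp1 (0.16), Slitrk4 (0.21), Ankrd23 (0.21), Pex7 (0.21) and Ktn1 (0.23), and only 9.24% of the reads of Pex7 were placed uniquely. Nppa and Nppb were at a distance of 0.75 from each other. With 4 libraries such a likeness rests on 4 values per gene.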

How the data were processed

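Gene expression was measured by RNA sequencing (TruSeq libraries) in 4 cultures of neonatal mouse cardiomyocytes, 1 library per condition, grouped by the treatment in the labels. For each of 36065 RefSeq transcript records the authors deposited 2 counts, of all and of uniquely placed reads, and the RPKM, per the file headers. The deposited RPKM follows from total reads, record length and the summed reads of the library. CASAVA 1.8 and mm8 are named in the submitters' processing notes without a role, and a mapping program was not given in the sources used here. Promoter and microRNA sequences come from RefSeq tables of GRCm38.p6, which hold all 8 promoters, and the sequences of hsa-miR-590-3p and cel-miR-67 are not used here.

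Reads were summed per gene over records, using the current symbol by accession for 27926 records (77.4%) and the symbol in the header for the other 8139. TMM factors came from edgeR 4.0.16 and alternative size factors from DESeq2 1.42.0 (R 4.3.3). Log2 ratios used a prior count of 0.5 and genes averaging 1 CPM or more. Intervals (95%) of ratios are conditional binomial and exact (Clopper-Pearson), and the limit for a count of 0 is 3 reads. Scripts ran in Python 3.11.15 (numpy 2.4.6, scipy 1.17.1, pandas 2.3.3, matplotlib 3.10.9). The criterion and the intervals were also run on simulated counts with Poisson error only. Those counts were scaled by library totals and held changes larger than the criterion. Such a run cannot show how often differences between cultures alone would meet the criterion.

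The members, the lists and the alternatives were chosen with earlier results of these data known. Named genes are the 8 members, members of each list past the criterion (up to 4 per list), the most abundant member of each list, 3 protein-coding neighbours on each side of Nppb and Nppa, and the 5 genes most alike to Nppa and to Nppb. Gene models without an approved-style symbol are counted and not named, and some genes selected in this way are not reported here. Mme, Ostn, Acta1, Adm, Sln, Stard10, Myl7 and Bmp10, and Gata4 and Nkx2-5 for the motif search, are named outside this rule. Summed CPM of other marker lists, in the order hsa-miR-199a-3p, hsa-miR-590-3p, cel-miR-67 and mock, were 11549, 10893, 9338 and 9987 for fibroblasts, 5235, 4038, 4016 and 3319 for smooth muscle and pericytes, 304, 352, 282 and 369.6 for epicardium, and 7.40, 5.86, 7.95 and 17.9 for macrophages. Among them Rgs5, a pericyte marker, met the criterion under hsa-miR-199a-3p, lower, on 43 and 86 reads under the microRNAs, against 78 and 72 in the controls.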

Additional observations from a re-analysis of the deposited data

How the results depend on the processing

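Without replicates the precision of every ratio is that of its counts, and the counts of Npr1, Nppc and the unique reads of Corin, Furin and Npr3 limit what can be seen. No paired analysis was possible because each condition has 1 library. Alternatives planned at the start, with earlier results of these data known, gave 252 member ratios. Of these, 191 stayed inside the counting interval of the main ratio and 61 moved outside it. Library totals and deposited RPKM rest on the same totals and are not separate checks. Of the 252, 243 kept their sign and none that met the criterion reversed. The other 9 were ratios of Npr3, Furin and Corin under uniquely placed reads or the record with most reads, where the gene's reads are split between variants. The number of members past the criterion under hsa-miR-199a-3p, 2, was 1 with scaling by library totals and 1 with deposited RPKM, which shifts the median gene against mock to 0.10, and under hsa-miR-590-3p, 0, was 1 (Nppa) with cel-miR-67 as the only control. Counts over all genes, 640 for hsa-miR-199a-3p and 79 for hsa-miR-590-3p, were 2654 and 1539 without a filter on low counts, 402 and 31 at a mean of at least 5 CPM, 1032 and 317 against cel-miR-67 alone, and 1038 and 248 against mock alone. The share of higher genes, 50.6% and 60.8%, was 63.2% and 73.6% with library totals and 63.4% and 73.0% with RPKM. Scaling by the cardiomyocyte markers, chosen after seeing the data, raised the median gene to 0.51 and 0.63 under hsa-miR-199a-3p and to 0.41 and 0.54 under hsa-miR-590-3p. It gave 1520 and 442 genes past the criterion, 96.4% and 99.5% of them higher, and among the members Nppb, lower, and Npr1 and Corin, higher, under hsa-miR-199a-3p. On that scale Npr2, at 0.39 and 0.39, and Furin, at 0.19 and 0.67, were above both controls under hsa-miR-199a-3p, and Nppb under hsa-miR-590-3p was at 0.0020 and 0.014.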

Other observations

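Other vasoactive peptide systems of the heart were looked at beside the natriuretic one, with 11 of 18 listed genes measured. Under hsa-miR-199a-3p 1 of the 11 met the 2-fold criterion, higher, and under hsa-miR-590-3p none did. Over all compared genes 2.4% and 0.356% met it higher. The list medians were 0.04 against cel-miR-67 and 0.30 against mock under hsa-miR-199a-3p, and -0.06 and 0.13 under hsa-miR-590-3p. Ednrb, the endothelin B receptor, had 174 reads under hsa-miR-199a-3p and 84 under hsa-miR-590-3p, against 70 with cel-miR-67 and 46 with mock, and only 2.14% of its reads were placed uniquely. For Ece1, the endothelin-converting enzyme and the most abundant, the log2 ratios were 0.04 and 0.32 under hsa-miR-199a-3p. Adm, which encodes adrenomedullin and is named after its values were seen, differed more between the controls than under either microRNA, with 1211 and 1486 reads under the microRNAs, against 1631 with cel-miR-67 and 685 with mock. Its log2 ratio of cel-miR-67 over mock was 1.11.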
